A study of Mus musculus with 6 samples.

Results

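The distal colons of mice given dextran sulphate sodium (DSS) together with montmorillonite powder were compared with those of mice given water. The comparison holds 4 of the 6 RNA sequencing libraries of the series, 2 a group, and all 20533 genes of the deposited table, of which 20307 with a mean of 1 or more over the 6 libraries were tested. All animals were wild-type C57BL/6 males aged 7 weeks, and the colon was taken on day 7. The first group drank 2% DSS and received montmorillonite at a dose that no source used here gives. The second group had neither agent, and the remaining 2 libraries came from mice given 2% DSS without montmorillonite. There is no group given montmorillonite alone, so that differences from water carry DSS and the clay together and cannot be told apart. Both DSS plus montmorillonite libraries were read one by one, and the account below turns on the genes that lay on the same side of water in both.

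DSS is a sulphated polysaccharide that damages the colonic epithelium when taken in drinking water and is widely used to provoke colitis in mice. The colonic epithelium is renewed from Lgr5-expressing stem cells at the crypt base, through dividing progenitors, into absorptive colonocytes and mucus-secreting goblet cells, and injury brings neutrophils, antimicrobial proteins and a phase of epithelial repair. Montmorillonite is a layered clay used as an oral adsorbent against diarrhoea. In whole tissue, fewer cells of a type and less RNA per cell cannot be told apart.

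The values are normalised read counts, that is, reads divided by 1 size factor per library, and they are not divided by gene length. Recovered reads were 8936826 and 3741494 in water (replicates 1 and 2) and 6395768 and 4494666 in DSS plus montmorillonite, so that 1 read was worth a value of 0.960 and 2.27 in water and of 1.44 and 1.82 in DSS plus montmorillonite. The DSS libraries were deeper, at 21481594 and 15212981 reads, so that depth goes with group in the comparisons with DSS. Whether the 2 libraries of each treatment are different animals is not stated, so a p-value here reflects only how far these libraries differ, which may be technical. The pair given DSS and the clay stood apart from each other. Across 13914 genes with a mean value above 20, the log2 values of replicate 1 correlated at 0.950 and 0.941 with the water libraries and at 0.835 with replicate 2. Replicate 2 correlated at 0.801 and 0.813 with water and at 0.918 and 0.937 with the DSS libraries. The water libraries correlated with each other at 0.969. General epithelial markers (15 genes such as Epcam, Krt8 and Cdh1) summed to 198187 and 203909 in water, 219300 in replicate 1 and 115682 in replicate 2.

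A library was counted as higher or lower for a gene when it lay at least 2-fold beyond both water libraries on the log2(value + 1) scale. Replicate 1 was higher for 1227 genes (6.04%) and lower for 1060 (5.22%), and replicate 2 was higher for 3359 (16.5%) and lower for 2008 (9.89%). In both libraries together, 622 genes (3.06%) were higher and 451 (2.22%) were lower, while 160 (0.788%) were 2-fold away in opposite directions. The higher set was mostly made of rare transcripts, with a median mean value of 5.42 against 28.8 in the lower set. Of the 622, 260 had no read in water and could enter the tested genes only through libraries where they were present. Of 19622 genes tested with a read in water, 362 were higher in both. Of the 13717 genes whose mean was 20 or more over the 4 libraries, 159 (1.16%) were higher and 244 (1.78%) lower in both. With no fold required, the groups did not overlap for 4376 genes that were higher (21.5%) and 3903 that were lower (19.2%).

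With limma on all 6 libraries, 0 genes (0%) differed between DSS plus montmorillonite and water at an adjusted p below 0.05. The smallest adjusted p was 0.268, and 2058 genes had an unadjusted p below 0.05. Run on the recovered reads, edgeR also called 0 genes (1931 at an unadjusted p below 0.05), whereas DESeq2 called 148 genes higher (0.989%) and 193 lower (1.29%) of 14960 with an adjusted p. Of the genes past the 2-fold rule in both libraries, DESeq2 called 80 of the 622 higher and 162 of the 451 lower. Fits without 1 of the DSS plus montmorillonite libraries leave a single library in that group. Its spread is then not measured, and their calls are not given. The differences below are therefore given as values, with the limma estimate where a gene is described in full.

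**Figure D1:**
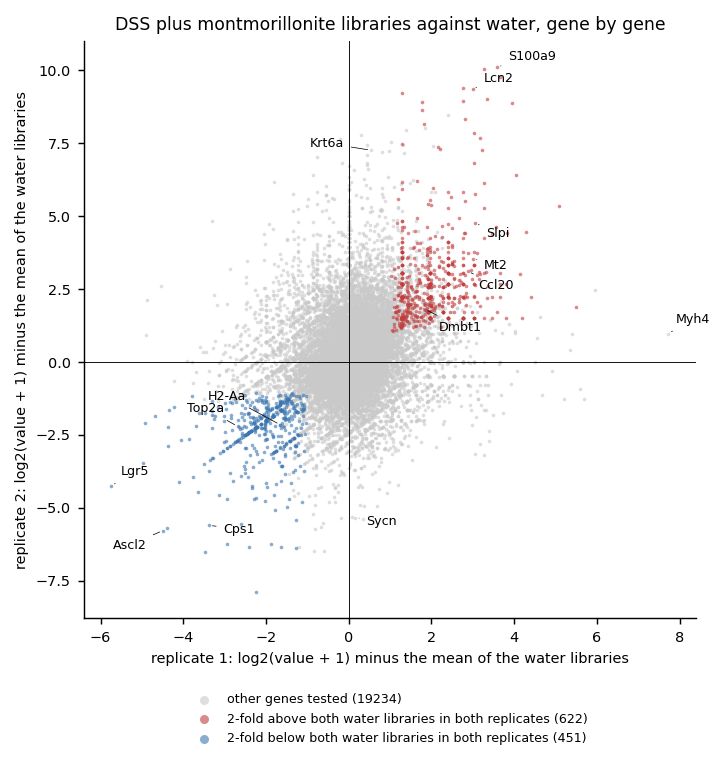
Each point is 1 of 20307 genes, placed by the difference from the mean of the water libraries, on the log2(value + 1) scale, in DSS plus montmorillonite replicate 1 (horizontal) and replicate 2 (vertical). The 622 red and 451 blue genes lay at least 2-fold above or below both water libraries in both replicates, straight rows of points are genes with few reads, and the vertical spread is wider than the horizontal one.

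Around the 2-fold limit the values were close to each other. Just inside it on the higher side, St6gal1 stood at 236 and 250 in water against 503 and 518 under DSS plus montmorillonite, and B3galt5 at 4089.9 and 3829.8 against 8326 and 8243. Just outside it were AB124611 (15.4 and 13.6 against 31.6 and 179.9) and Pth1r (11.5 and 20.5 against 41.7 and 45.4). On the lower side Apol10b (70.1 and 86.4 against 34.5 and 29.1) and Cks2 (269 and 321 against 134 and 67.2) lay just inside, and Rfc3 (145.9 and 186 against 60.4 and 72.7) and Ncapg2 (269 and 300.2 against 71.9 and 134) just outside.

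Genes of mitosis were lower in both libraries more often than those of any other of 48 lists. Of 27 genes tested, 24 were lower in both DSS plus montmorillonite libraries, against 2.22% of all genes, and none was higher. The median difference from water was -2.05 in replicate 1 and -1.89 in replicate 2, against 0.06 and 0.04 over all genes tested. Summed over the list, values were 13977 and 12251 in water and 3603 and 3454 with DSS and montmorillonite. DESeq2 called 24 of the 27 lower, against 1.29% of all genes with an adjusted p, and the smallest adjusted p with limma was 0.268.

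Here and below, list members named beyond the 2 per list with the widest gap were chosen after their values were seen. Cdc20, which activates the anaphase-promoting complex so that chromatids separate, is encoded at chr4:118432901-118437352 (GRCm38, minus strand). It stood at 468 and 382 in water and at 70.5 and 74.5 in DSS plus montmorillonite, 16.6% and 17.5% of the water mean. The log2 difference was -2.53 (SE 0.27, limma adjusted p 0.268). The 4 values fell into separate groups, and both DSS libraries, at 278 and 384, lay beside or below water and well above DSS plus montmorillonite. Top2a, the topoisomerase that untangles replicated chromosomes (chr11:98992943-99024189), was at 1462 and 1556 in water and at 234 and 325 in DSS plus montmorillonite. Its DSS values were 1580 and 903, so that these 6 values put DSS plus montmorillonite below every other library. Ube2c, the ubiquitin-conjugating enzyme that works with Cdc20, was at 610 and 500.3 in water against 89.2 and 110.8 under DSS plus montmorillonite. Cdk1, the kinase that drives entry into mitosis, was at 409 and 473 against 89.2 and 107. Its partner cyclins followed the same pattern, with Ccnb1 at 525 and 425 against 115 and 85.4, and Ccna2 at 994 and 839 against 175 and 207. Mki67, the proliferation marker Ki-67, was at 2523 and 2031 against 836 and 556, or 36.7% and 24.4% of the water mean. Pbk, a mitotic kinase, and Oip5, which helps load the centromeric histone, were among the 12 protein-coding genes with the widest gap below water. Pbk was at 308 and 271 in water against 38.8 and 19.99 under DSS plus montmorillonite, and Oip5 at 77.7 and 91.0 against 7.19 and 5.45. The 3 mitosis genes outside the rule were Cenpe (357 and 259 against 141 and 76.3), Plk1 (473 and 500.3 against 316 and 229) and Pttg1 (215 and 209 against 253 and 133). Pttg1, the separase inhibitor securin, was the member of the list whose groups overlapped.

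Genes of DNA replication were lower as well, further in replicate 1 than in replicate 2 for all but 4 of them. Replicate 1 was lower for 24 of 28 genes (5.22% of all genes) and replicate 2 for 11 (9.89%). Those 11 were lower in both, against 2.22% of all genes. The median difference from water was -1.67 and -1.07, and all 28 had a negative log2 fold change. Gins2, a subunit of the replicative helicase, was at 122 and 114 in water against 18.7 and 30.9 under DSS plus montmorillonite. Rfc4, a subunit of the clamp loader, was at 126 and 97.8 against 30.2 and 18.2. The other helicase subunits split the replicates: Mcm6 was at 486 and 737 in water, 82.0 in replicate 1 and 262 in replicate 2, and Mcm3 at 222 and 330 in water, 40.3 and 176. Fen1, the flap endonuclease of lagging-strand synthesis, was at 17.3 and 25.0 against 2.88 and 1.82, which is 2 reads and 1 read.

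The cell division genes also lay below the DSS libraries, a comparison that shares the DSS plus montmorillonite libraries with the one above but no water library. Groups did not overlap, with DSS plus montmorillonite lower, for 25 of 27 mitosis genes and 27 of 28 DNA replication genes, against 20.6% of all genes tested. Median differences from water in the DSS libraries were -0.14 and -0.66 for mitosis and 0.29 and -0.14 for DNA replication. With limma 0 genes of the table (0%) differed between these groups (smallest adjusted p 0.266, 2291 at an unadjusted p below 0.05), and edgeR called 0 (2217 at an unadjusted p below 0.05). DESeq2 called 473 genes higher (3.34%) and 167 lower (1.18%) than DSS, among them 22 mitosis and 9 DNA replication genes, all lower. Fits against DSS that leave out 1 of the DSS plus montmorillonite libraries do not measure the spread within that group, and their calls are not given. General epithelial markers in the DSS libraries summed to 83106 and 55092, so that of these 4 libraries the DSS pair had the lower epithelial sums and the higher cell division sums. Whether the epithelial share had a part in these differences was not tested.

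**Figure D2:**
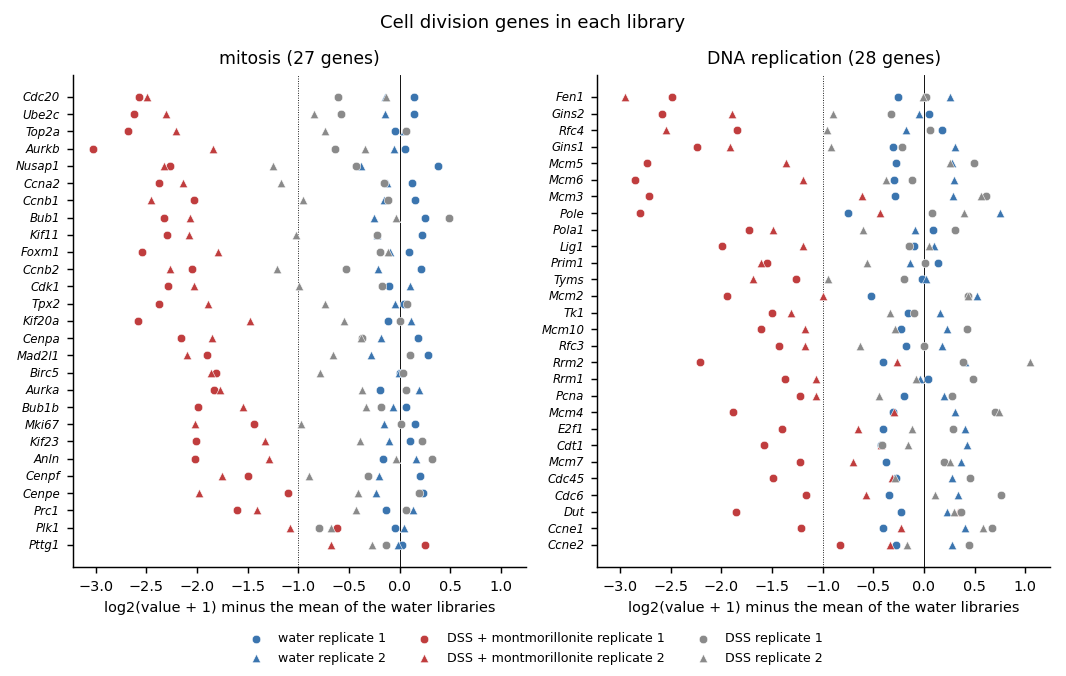
Difference from the mean of the water libraries on the log2(value + 1) scale (horizontal) for each of 27 mitosis and 28 DNA replication genes (vertical) in the 6 libraries, with the dotted line at 2-fold below the water mean. The red DSS plus montmorillonite points lie to the left of blue water and grey DSS points for nearly all mitosis genes, and in DNA replication the red circles of replicate 1 lie left of the red triangles of replicate 2 except in 4 genes.

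Promoter sequence of 3 of these genes is shown because late cell cycle genes are known to share a pair of short elements, the CCAAT box and the cell cycle genes homology region (CHR, searched here as TTTGAA). The windows are the 250 bases before the RefSeq transcript start on GRCm38.p6, at chr4:118437344-118437593 (minus strand) for Cdc20, chr11:99024190-99024439 (minus strand) for Top2a and chr2:164769679-164769928 (plus strand) for Ube2c. Capitals mark CCAAT or TTTGAA on either strand (ATTGG and TTCAAA on the other strand), and no CCAAT match shares bases with a TTTGAA match in these windows, although CCAAT and ATTGG overlap once in Ube2c.
Cdc20: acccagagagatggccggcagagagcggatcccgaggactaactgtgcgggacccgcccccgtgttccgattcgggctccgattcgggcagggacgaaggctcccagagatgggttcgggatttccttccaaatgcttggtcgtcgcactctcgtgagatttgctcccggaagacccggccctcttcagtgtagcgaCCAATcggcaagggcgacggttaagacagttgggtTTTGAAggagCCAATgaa
Top2a: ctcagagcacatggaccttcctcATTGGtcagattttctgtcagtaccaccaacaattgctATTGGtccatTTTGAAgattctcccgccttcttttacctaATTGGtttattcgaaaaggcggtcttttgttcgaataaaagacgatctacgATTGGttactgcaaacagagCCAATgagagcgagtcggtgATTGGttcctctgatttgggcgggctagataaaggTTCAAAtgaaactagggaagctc
Ube2c: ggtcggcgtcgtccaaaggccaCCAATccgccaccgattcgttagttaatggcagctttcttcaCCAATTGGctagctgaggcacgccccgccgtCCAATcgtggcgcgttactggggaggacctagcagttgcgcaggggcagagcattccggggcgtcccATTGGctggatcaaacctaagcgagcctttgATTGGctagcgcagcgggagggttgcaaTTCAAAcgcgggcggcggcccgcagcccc
Cdc20 held 2 CCAAT matches, and Top2a and Ube2c 6 each. The CHR letters occurred once in Cdc20, 2 times in Top2a and once in Ube2c. RefSeq windows were found for 13445 of the genes tested, 17043 windows in all. Of these, 34.3% held CCAAT, 11.6% TTTGAA and 4.19% both. Of 330 windows of genes lower in both libraries, 44.5% held CCAAT, 19.7% TTTGAA and 10.9% both, and of 416 windows of genes higher in both, 28.8%, 13.7% and 4.57%. Of 23 windows of mitosis genes, 18 held CCAAT and 8 held both. Of 27 windows of DNA replication genes, 14 held CCAAT, 3 TTTGAA (11.1%, near the share of all windows) and 2 both. A match is a description of the letters, not a measured binding site.

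The crypt stem cell markers Lgr5 and Ascl2 were at or near 0 reads in both libraries, whereas their list as a whole was less displaced. Over its 17 members tested, the median difference from water was -0.57 in replicate 1 and -0.36 in replicate 2. Summed values were 4537 and 5110 in water, 3751 in replicate 1 and 6677 in replicate 2. Lgr5, the R-spondin receptor that marks crypt base stem cells (chr10:115450311-115587780), was at 63.3 and 43.2 in water, 66 and 19 reads, and at 0 and 1.82 in DSS plus montmorillonite, 0 reads and 1 read. The log2 difference was -4.99 (SE 0.75, limma adjusted p 0.268). Ascl2, the transcription factor of the same stem cells (chr7:142966829-142969264), was at 49.0 and 59.1 against 1.44 and 0. The Wnt feedback gene Axin2 was at 155 and 171 against 40.3 and 25.4, and Cdca7, a further Wnt-responsive progenitor gene, at 394 and 512 against 112 and 70.9. These 4 were lower in both libraries (2.22% of all genes were) and 0 of the 17 list members were higher in both. The DSS libraries were low in the stem cell genes too, with Lgr5 at 4.02 and 2.88 and Ascl2 at 12.7 and 2.88. Of all 17 members, 9 were below both water values in both libraries and 1 above, against 19.2% and 21.5% of all genes. Others lay on different sides in the 2 libraries, among them Cd44, a Wnt target that is also expressed by immune and stromal cells, was at 484 and 466 in water, 256 in replicate 1 and 1210 in replicate 2, and Sox9, a progenitor transcription factor, at 430.0 and 387 in water, 751 and 124.

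Among secretory cells of the deep crypt, Reg4, a lectin that marks them, was at 3244 and 2806 in water and at 498 and 63.6 in DSS plus montmorillonite. Ang4, an antimicrobial ribonuclease, was at 1522 and 787 against 229 and 3.63. Both genes were well below water in both libraries, but replicate 2 lay far below replicate 1, for Ang4 at 2 reads against 159. Of the 10 genes of this list, these 2 were lower in both libraries, against 2.22% of all genes, and 0 were higher. The median of the list was 0.12 in replicate 1 and -0.89 in replicate 2, and 4 members had a positive log2 fold change. Mptx1 and Sycn, secreted by the same cells, were 2-fold lower in replicate 2 only. Mptx1 was at 8747 and 7675 in water, 4561 in replicate 1 and 90.8 in replicate 2, and Sycn at 4305 and 4562, 4959 and 109. Cldn2, the pore-forming claudin of the crypt, was at 892 and 1035 in water against 178 and 10.9 under DSS plus montmorillonite.

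Genes of MHC class II presentation, by which antigen-presenting cells and some epithelial cells show peptides to helper T cells, were lower in both libraries for 7 of 13 members, against 2.22% of all genes. The median difference was -1.29 in replicate 1 and -1.35 in replicate 2, and summed values were 61302 and 56132 in water against 27158 and 20480. H2-Aa, the alpha chain of I-A (chr17:34282744-34287823), was at 15485 and 13541 in water and at 4601 and 3256 in DSS plus montmorillonite, 31.7% and 22.4% of the water mean. H2-Ab1, its beta chain, was at 8713 and 7521 against 2851 and 2106, with a log2 difference of -1.72 (SE 0.23, limma adjusted p 0.268). The invariant chain Cd74 was at 24019 and 22074 against 10495 and 7262. Ciita, the transactivator of the class II genes, was at 418 and 453 against 177 and 151. The peptide exchange genes H2-DMa and H2-DMb1 and the chain gene H2-Eb1 completed the 7, and DESeq2 called 6 of them (1.29% of all genes with an adjusted p), all but Ciita. Class II genes that are typical of B cells went a different way. H2-Ob was at 59.5 and 56.9 in water, 33.1 in replicate 1 and 233 in replicate 2, and H2-DMb2 and H2-Oa were 2-fold lower in replicate 1 and 2-fold higher in replicate 2. Markers of B and plasma cells (24 genes, none without reads in water) summed to 67237 and 60394 in water, 80959 in replicate 1 and 307236 in replicate 2. Of these sums the IgA heavy chain gene Igha alone held 23687 and 25789.6, 32178 and 155034. The median difference of this list from water was -0.25 in replicate 1 and 1.89 in replicate 2. Markers of monocytes and macrophages summed to 19820 and 20614 in water, 21953 and 29341. The part of these cells in the class II values was not tested. DSS libraries had H2-Aa at 3979 and 2024 and Cd74 at 6236 and 6374, on the same side of water.

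Of 32 interferon response genes, 3 were lower in both libraries, against 2.22% of all genes. The list as a whole split the replicates, with a median difference from water of 0.05 in replicate 1 and -1.34 in replicate 2. Replicate 1 was lower for 3 genes and higher for 2 (5.22% and 6.04% of all genes). Replicate 2 was lower for 17 and higher for 0 (9.89% and 16.5%). Cxcl9, a chemokine induced by interferon gamma, was at 352 and 273 in water against 79.1 and 85.4 under DSS plus montmorillonite. The immunity-related GTPases Iigp1 and Igtp, also interferon gamma targets, were at 1623 and 1576 against 409.9 and 549, and at 1302 and 1653 against 606 and 303. Tgtp1 and Gm4841 belong to the same GTPase family and lay outside the list. Tgtp1, chosen after its values were seen, was at 288 and 293 against 54.7 and 30.9, and Gm4841 at 56.6 and 88.7 against 4.31 and 3.63. Ifng itself was low throughout, at 10.6 and 11.4 in water against 2.88 and 0 under DSS plus montmorillonite. In the list 15 of 32 genes were below both water values in both libraries, against 19.2% of all genes. Ifit1 and Oas2, which are induced by type I interferon, differed between the replicates, with Ifit1 at 872 and 1251 in water, 1487 in replicate 1 and 267 in replicate 2, and Oas2 at 272 and 544, 1352 and 227.

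Other genes past the rule came from lists with few such members. In the amino acid and urea cycle list 2 of 20 were lower in both and 1 higher, and in the xenobiotic enzyme list 1 of 29 and in the bile acid and sterol transport list 1 of 13 were lower, against 2.22% and 3.06% of all genes. Cps1 and Otc, the first enzymes of the urea cycle, were at 395 and 403 in water against 37.4 and 7.27, and at 118 and 68.2 against 7.19 and 0. Arg2, the mitochondrial arginase, lay on the other side of water, at 0.960 and 2.27 in water (1 read each) and at 20.1 and 134 in DSS plus montmorillonite. Fut9, a fucosyltransferase that builds Lewis x glycans (chr4:25609332-25800244), was at 413 and 321 against 40.3 and 14.5, with a log2 difference of -3.85 (SE 0.54, limma adjusted p 0.268). Its DSS values, 15.4 and 18.2, were as low. Alox15, the lipoxygenase of eosinophils and macrophages, was at 79.7 and 129.6 against 7.19 and 3.63, and the neuropeptide Y receptor Npy1r at 122 and 116 against 7.19 and 18.2. The widest gaps on the lower side also included the beta-defensin Defb45 (85.4 and 61.4 against 8.63 and 1.82) and the carboxylesterase Ces1c (37.4 and 47.8 against 4.31 and 5.45). Kcnq1, the basolateral potassium channel that supports chloride secretion, was at 391 and 523 against 187 and 60.0. Fabp6, the bile acid binding protein, was at 271 and 366 against 110.7 and 9.08, and the glucuronosyltransferase Ugt2b35 at 270 and 189 against 71.9 and 1.82. In these 3 the value of replicate 2 was at least 3-fold lower than that of replicate 1.

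Ribosomal protein genes were uniformly somewhat lower. None of 20 passed the 2-fold rule, but for all 20 both DSS plus montmorillonite values were below both water values, against 19.2% of all genes. The median difference was -0.51 in replicate 1 and -0.79 in replicate 2, and -0.35 and -0.49 in the DSS libraries. It was between -0.70 and -0.67 over both replicates under each scaling tried (library size, TMM and thinned reads). Summed values were 122895 and 125817 in water against 87521 and 74393 under DSS plus montmorillonite.

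**Figure D3:**
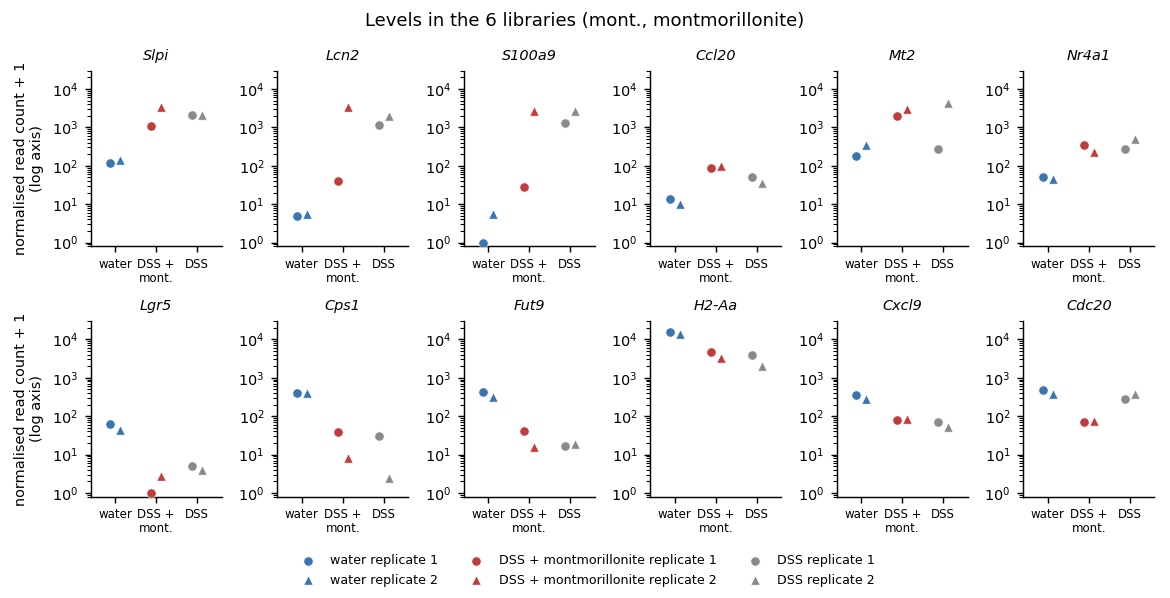
Normalised read count plus 1 on a log axis for 12 genes in the 6 libraries, with circles for replicate 1 and triangles for replicate 2. Red DSS plus montmorillonite points lie above the blue water points for the upper 6 genes and below them for the lower 6, and for Lcn2 and S100a9 the red points are about 2 log units apart.

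On the higher side, the antimicrobial list had 22 members tested. Of these, 11 were higher in both libraries, against 3.06% of all genes, and 2 were lower (Ang4 and Lyz1, a lysozyme of secretory cells at 98.9 and 143 against 18.7 and 34.5). Ngp is among the 11 and also counts in the neutrophil list below, so that the counts of these lists are not separate. Of the 11, 4 had no read in water and could enter the tested genes only through libraries where they were present. Of the 18 with a read in water, 7 were higher in both, against 362 of 19622 such genes in all. The median difference was 1.07 in replicate 1 and 2.495 in replicate 2. Slpi, a secreted protease inhibitor (chr2:164354070-164389095), was at 116 and 136 in water and at 1054 and 3458 in DSS plus montmorillonite, 8.35-fold and 27.4-fold the water mean. The log2 difference was 3.91 (SE 0.51, limma adjusted p 0.268), and the DSS libraries, at 2074 and 2057, lay between the DSS plus montmorillonite ones. Lcn2, which binds bacterial siderophores and is a common marker of gut inflammation (chr2:32384633-32388252), was at 3.84 and 4.55 in water, 4 and 2 reads, and at 40.3 and 3392 in DSS plus montmorillonite. Both values were above water, but they differed from each other more than replicate 1 did from water. Duox2, the oxidase that releases hydrogen peroxide at the mucosal surface, was at 1480.1 and 1517 against 3550 and 7789. The serum amyloid genes Saa1 and Saa3 were at 3011 and 3884 against 11237 and 8163, and at 11.5 and 18.2 against 51.8 and 7480.2. The 2 values of Saa1 were close to each other, and its DSS values, 4979 and 2627, lay below both. Saa1 and Saa2 are near-identical copies, and how reads they share were counted is not stated. The lectins Reg3g and Reg3b had no read in water. Reg3g was at 8.63 and 69.0 in DSS plus montmorillonite, at least 4.26-fold and 34.1-fold above a floor of 3 reads over the water group. Reg3b was at 1.44, a single read, in replicate 1 and at 174 in replicate 2.

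Dmbt1 and Clca4b had the highest mean values among the genes higher in both, and with Muc1 they were chosen after their values were seen. Dmbt1, a mucin-like scavenger receptor that binds bacteria, was at 23546 and 24566 in water and at 85519 and 84744 in DSS plus montmorillonite. Its DSS values were 33909 and 29510.0, so that the DSS plus montmorillonite pair lay apart from both other groups. Clca4b, a secreted chloride channel regulator family member, was at 3659 and 2811 against 13995 and 46625, and Muc1, a membrane mucin, at 55.7 and 36.4 against 289 and 203. Of 17 goblet cell genes 0 were higher or lower in both libraries. In replicate 1, 4 were higher (6.04% of all genes were), in replicate 2, 4 were lower (9.89% were), and the medians were 0.62 and -0.33. Muc2, the gel-forming mucin of goblet cells, was at 8739 and 7448 in water and at 20424 and 17255 in DSS plus montmorillonite, 2.52-fold and 2.13-fold the water mean, with replicate 2 just short of 2-fold above the higher water library. Its DSS values were 7658 and 4408. Tff3, the trefoil peptide of goblet cells, was at 2442 and 2045 in water, 7275 in replicate 1 and 2978 in replicate 2.

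Neutrophil genes were higher in both libraries for 8 of 19 members tested, against 3.06% of all genes, at levels that differed by the replicate. Of the 19, 5 had no read in water and entered the tested genes only through libraries where they were present. Without these, 4 of 14 were higher in both, against 362 of all 19622 genes tested with a read in water. The median difference from water was 0.87 in replicate 1 and 5.95 in replicate 2, while DSS alone gave medians of 5.08 and 6.90. S100a9, a calprotectin subunit that is abundant in neutrophils (chr3:90692632-90695721), was at 0 and 4.55 in water (0 and 2 reads), at 27.3 in replicate 1 (19 reads) and at 2602 in replicate 2. Its DSS values were 1315 and 2696. Retnlg and Ngp, granule and secreted proteins of neutrophils, had no read in water. Retnlg was at 11.5 and 861 and Ngp at 14.4 and 465 in DSS plus montmorillonite, at least 5.68-fold and 425-fold and at least 7.10-fold and 230-fold above the floor. Mmp8, the neutrophil collagenase, was at 0 in water and at 5.75 and 489. The members less than 2-fold away in replicate 2 were Cd177 (1265 and 971 in water against 890.3 and 832) and Ly6g (2989 and 3193 against 5084 and 5954), both at high levels in water. Ly6g lay above water in both libraries and Cd177 below. Lrg1, a glycoprotein made by neutrophils, liver and inflamed epithelium, was at 8.64 and 11.4 in water and at 109 and 5667. Chil3, a chitinase-like protein of myeloid cells, was at 3.84 and 0 against 14.4 and 712.

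Of 35 cytokines and chemokines, 4 were higher and 2 lower in both libraries, against 3.06% and 2.22% of all genes, while replicate 2 was higher for 24, against 16.5%. Of the 4, Csf3 and Il17a had no read in water and could enter the tested genes only through libraries where they were present. Of the 32 members with a read in water, 2 were higher in both, against 362 of 19622 such genes in all. Ccl20, the chemokine that draws CCR6-bearing lymphocytes and dendritic cells to the epithelium (chr1:83116766-83119167), was at 12.5 and 9.10 in water and at 84.9 and 99.9 in DSS plus montmorillonite. These are 7.87-fold and 9.26-fold the water mean, with a log2 difference of 2.996 (SE 0.46, limma adjusted p 0.268). The replicates were close, and the DSS libraries, at 49.2 and 34.0, lay below both. Il1b, the inflammasome cytokine, was at 30.7 and 40.9 in water, 90.6 in replicate 1 and 901 in replicate 2, with DSS at 1165.5 and 1165.4. Csf3, the neutrophil growth factor G-CSF, had no read in water and was at 5.75 (4 reads) and 672. Il17a, also without a read in water, was at 1.44 (1 read) and 18.2. Il18, an epithelial cytokine, was above water in both libraries but 2-fold only in replicate 1, with 611 and 616 in water, 2228 in replicate 1 and 1007 in replicate 2. Tissue repair genes held 2 of 18 members higher in both, where 3.06% of all genes were. These were Ereg, an EGF receptor ligand (66.2 and 72.8 against 262 and 1742), and Msln (1.92 and 0 against 14.4 and 352). Among matrix remodelling genes 22 of 25 were higher in replicate 2 (16.5% of all genes) and 2 in both (3.06%), Mmp8 and Mmp3, the latter at 11.5 and 20.5 in water against 54.7 and 6499 under DSS plus montmorillonite. Mmp8 had no read in water, and of the 23 members with a read there, 1 was higher in both.

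Metallothioneins, small cysteine-rich proteins that bind zinc and copper, were higher in both libraries by a similar amount. Mt2 (chr8:94172664-94173568) was at 180 and 346 in water and at 2014 and 2929 in DSS plus montmorillonite, and Mt1 (chr8:94179082-94180327) at 1171 and 1858 against 6833 and 7288. The DSS libraries differed here, with Mt1 at 1063 and 8507 and Mt2 at 277 and 4187, so that 1 of them lay at the water level and the other above all. The limma adjusted p was 0.470 for Mt2 and 0.484 for Mt1. Haptoglobin (Hp), at 4.80 and 2.27 against 14.4 and 1239, was the only other member of 22 metal handling genes that was higher in both. With Mt1 and Mt2, 3 of the 22 were higher in both, against 3.06% of all genes, and 0 were lower. The iron exporter Slc40a1 was at 2656 and 2031 against 3228 and 1984, and the ferritin chain Fth1 at 11817 and 13054 against 16348 and 26658.

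Of 20 immediate-early genes, 2 were higher in both libraries, against 3.06% of all genes. Nr4a1, an orphan nuclear receptor induced within minutes by many stimuli (chr15:101254269-101274795), was at 49.9 and 45.5 in water and at 341 and 231 in DSS plus montmorillonite, with a log2 difference of 2.53 (SE 0.37, limma adjusted p 0.268). Fosl1 was at 12.5 and 11.4 against 27.3 and 41.8. Fos and Fosb were high in replicate 1 only, Fos at 744 and 1399 in water, 4887 and 892.

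Genes of enteric neurons and glia were higher in both libraries for 5 of 20 members and lower in both for 0, against 3.06% and 2.22% of all genes, with medians of 0.82 and 1.63. Tac1, the substance P precursor (chr6:7554879-7565834), was at 158 and 205 in water and at 583 and 1259 in DSS plus montmorillonite. Nos1, the nitric oxide synthase of inhibitory motor neurons, was at 21.1 and 22.7 against 86.3 and 136. The neuronal RNA-binding protein gene Elavl4 was at 11.5 and 6.82 against 25.9 and 63.6, and the neuropeptide gene Gal at 1.92 and 0 against 7.19 and 41.8. Summed values of the list were 515 and 844 in water, 1453 and 3327 in DSS plus montmorillonite and 3026 and 2913 in DSS. The smooth muscle list, the tissue that holds the myenteric neurons, summed to 39901 and 66530 in water, 72015 in replicate 1 and 29869.8 in replicate 2, and its part in the neuronal values was not tested. The enteroendocrine granule protein Chga was at 165 and 164 in water against 406 and 398 under DSS plus montmorillonite. It was the only one of 20 enteroendocrine genes past the rule, where 3.06% of all genes were higher in both. For 12 of the 20 the groups did not overlap, with DSS plus montmorillonite higher, against 21.5% of all genes. Myot, a sarcomere protein, was among the widest gaps on the higher side (4.80 and 0 against 38.8 and 202), as was the matrix protein Adamtsl2 (0 and 0 against 7.19 and 231).

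Many more genes were displaced in 1 of the libraries only, the other being less than 2-fold beyond both water values (near water). Replicate 2 was higher and replicate 1 near water for 2637 genes, and replicate 2 lower and replicate 1 near water for 1497. The reverse held for 545 and 509 genes. Skeletal muscle genes were higher in replicate 1 for 12 of 12 members, against 6.04% of all genes. Myh4, a fast myosin, was at 0 and 4.55 in water, 498 in replicate 1 and 3.63 in replicate 2. The list had sums of 793 and 348 in water, of 4630 and 205 under DSS plus montmorillonite and of 125 and 3597 under DSS. Genes of stratified squamous epithelium, which lines the anal canal and not the colon, were higher in replicate 2 for 16 of 19 members, against 16.5% of all genes. The keratin Krt6a was at 0 and 72.8 in water, 11.5 in replicate 1 and 1312 in replicate 2, and at 2.01 and 7358 in DSS. The squamous list had sums of 4251 and 4373 in water, of 4010.0 and 11021 under DSS plus montmorillonite and of 1966 and 46053 under DSS. Neither list held a gene past the rule for both libraries.

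Among 18 mature colonocyte genes 0 passed the rule in either direction. In replicate 1, 2 were lower and 0 higher, against 5.22% and 6.04% of all genes. In replicate 2, 2 were lower and 1 higher, against 9.89% and 16.5%. Absorptive and junction genes named here differ in how far the libraries split. Aqp8, a colonocyte water channel, was at 6454 and 5813 in water, 6652 in replicate 1 and 805 in replicate 2. Slc26a3, the chloride and bicarbonate exchanger, was at 10753 and 8453, then 14221 and 3461, and occludin (Ocln) at 1473 and 1283, then 1559 and 518. Car1, a carbonic anhydrase of colonocytes, was at 6937 and 5952, then 13343 and 8461, and the junction scaffold Tjp1 at 1645 and 1501, then 2330.1 and 1919, above water in both. The IgA heavy chain Igha, a plasma cell gene, was at 23687 and 25789.6, then 32178 and 155034. Against DSS, the DSS plus montmorillonite libraries did not overlap and were higher for 15 of the 18 mature colonocyte genes and for 13 of 17 goblet cell genes, compared with 19.4% of all genes. DESeq2 called 10 and 8 of them higher, against 3.34% of all genes with an adjusted p. Their median log2 differences from DSS were 1.44 and 1.74. The groups also did not overlap, again higher than DSS, for 12 of 15 general epithelial and 15 of 20 junction genes, with medians of 1.11 and 0.88. Fewer did so among deep crypt secretory (2 of 10) and enteroendocrine genes (3 of 20). For mature colonocyte genes the medians against water were 0.40 in replicate 1 and -0.33 in replicate 2, and in the DSS libraries -1.21 and -1.53. Both comparisons share the DSS plus montmorillonite libraries, and the medians against water share the water libraries.

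**Figure D4:**
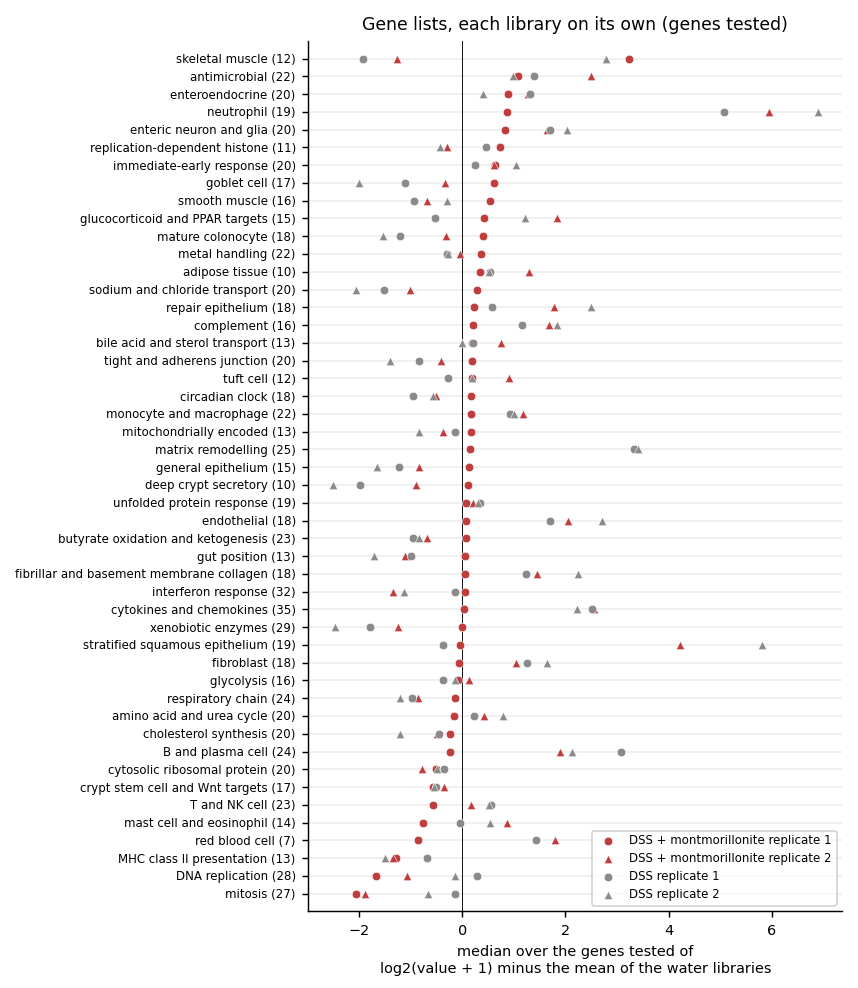
Median over the genes of each of 48 lists of the difference from the mean of the water libraries on the log2(value + 1) scale (horizontal), in the DSS plus montmorillonite (red) and DSS (grey) libraries, with the number of genes tested in brackets. Mitosis and DNA replication have both red points far to the left of both grey points, MHC class II has both red points near -1.3, and skeletal muscle, neutrophil and squamous genes have red points far apart.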

How the data were processed

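RNA sequencing of distal mouse colon was deposited as 1 table of 20533 genes in 6 libraries. The deposited values are signal, namely reads that were scaled by a single factor in every library, as the values show. The genome is mm10 per the submitters' processing notes, and the aligner and counter are not given in the sources used here. Whole reads were recovered for 100% of values within 0.01 read. Members, gene lists and tests were chosen with earlier results of these data known.

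Genes averaging 1 or more over the 6 libraries were kept (226 removed), log2(value + 1) was taken, and limma 3.58.1 in R 4.3.3 was fitted to the 6 libraries in 3 groups with Benjamini-Hochberg adjustment (3 residual degrees of freedom). The fit was tested on simulated data. edgeR 4.0.16 and DESeq2 1.42.0 on the recovered reads were alternatives, as were other pseudocounts, filters, scalings, folds and the leaving out of each library. The 48 lists held 906 genes, 872 of them tested. Named genes were the 12 protein-coding genes per direction with the widest gap to water and a mean value of at least 20, 2 members per list with the widest gap, genes that split the replicates, and a fixed set. Positions are from GENCODE M21 (GRCm38), and promoters from RefSeq GRCm38.p6. Python 3.11.15, pandas 2.3.3, numpy 2.4.6 and matplotlib 3.10.9 were used. Precision rests on 2 libraries a group, and 1 read was worth between 0.335 and 2.27 in value. Some items are not reported here.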

Additional observations from a re-analysis of the deposited data

How the results depend on the processing

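With 2 libraries a group, few reads in water for many of the higher genes, and DSS plus montmorillonite libraries that stood far apart, the counts depended on the settings. Against 622 genes higher and 451 lower in both libraries, the rule gave 191 and 262 with a pseudocount of 5, 245 and 274 with a minimum mean of 10, 1162 and 890 at 1.5-fold, 108 and 77 at 4-fold, and, added after the data were seen, 159 and 244 with a minimum mean of 20. Leaving out 1 library gave between 1227 and 3359 higher and between 722 and 2008 lower. Such counts can only be larger, because the rule then asks for fewer differences, and all 622 and 451 genes stayed among them. Under limma no gene was called, except that leaving out 1 library gave between 0 and 649 higher and between 0 and 329 lower, the calls all coming without replicate 1 of DSS plus montmorillonite. DESeq2 called 148 and 193 genes, and 87 and 113 on the 4 libraries alone, a fit added after the data were seen. The cause of these differences was not tested. The median of the immediate-early genes was 0.72, between 0.66 and 0.73 under the other pseudocounts and scalings, and between 0.61 and 0.69 when 1 library was left out.

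With the replicate block 0 genes passed limma (smallest adjusted p 0.167). The pairing by number rests on 2 libraries a group and is not stated by the labels: same-numbered libraries had correlations of their deviations of 0.409 (DSS and DSS plus montmorillonite), 0.196 (DSS and water) and 0.160 (DSS plus montmorillonite and water) over 13914 genes.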
